A study of Arabidopsis thaliana with 15 samples.

Results

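The comparison described here set Arabidopsis thaliana plants sprayed with the leaf bacterium Williamsia sp. Leaf354 at a density of 1000000 colony-forming units (cfu) per ml, called W6, against mock plants sprayed with phosphate-buffered saline. The libraries were taken by their labels, and 6 of the 15 libraries of the series belong to these 2 groups, 3 in each. All plants were of the accession Col-0, raised aseptically in lidded boxes for 6 weeks before spraying. Aboveground parts were collected 96 h after spraying, and each library pooled 2 plants from different boxes. The other groups, again of 3 libraries each, received 100000 cfu per ml (W5), 10000000 cfu per ml (W7) or 100000000 cfu per ml (W8) in the same way, and they entered the model that estimated the spread between replicates. The labels call the strain non-pathogenic, and the question was how strongly the bacterial density on the leaf sets the plant's response. Bulk tissue was measured, so a change in the share of a cell type cannot be told apart from a change of RNA per cell.

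Leaf cells sense their sugar supply through the kinase SnRK1, which is active when energy is scarce and acts partly through bZIP transcription factors. Genes used as markers of this low-energy state are the SEN and DIN genes, named for senescence and for induction in the dark. The hormone cytokinin works through receptor kinases and phosphotransfer proteins that activate type-B response regulators, and these switch on type-A regulators (ARRs), which damp the signal. KMD proteins are kelch-repeat F-box proteins that are known in Arabidopsis to mark type-B regulators for degradation. Recognition of bacterial molecules at the cell surface switches on another set of genes, among them FRK1, and the salicylic acid pathway switches on PR genes.

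Of 19404 genes tested, 183 rose and 66 fell in W6 plants at an adjusted p under 0.05 in edgeR's quasi-likelihood test, which is 0.943% and 0.34% of the genes. AT2G20670, a gene of unknown function, BT2, a gene known to respond to low sugar, and KMD1, an F-box gene of cytokinin signalling, were all at least 4-fold higher, and each was higher in every W6 library than in any mock library. ARR6 and ARR7, type-A regulators that read out cytokinin signalling, fell. Changes were mostly small. The median log2 fold change was 0.71 over the genes that rose, -0.54 over those that fell and -0.012 over all genes tested, 57 of the 249 called genes changed at least 2-fold, and 106 changed by less than 1.5-fold. In all 249 called genes the 3 W6 libraries lay on 1 side of the 3 mock libraries, and over all genes tested this was so in the upward direction for 7.36% and in the downward direction for 6.67%.

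The libraries held 18200020 to 20980193 counts in W6 and 18690766 to 21648036 in mock. Mock replicate 3 stood apart. In a principal component analysis of the 15 libraries the first component, with 49.7% of the variance, placed the W6 libraries at -19.8, -19.8 and -12.3 and the mock libraries at -42.4, -39.8 and 19.4. W6 replicate 1 stood apart in another respect: 0.436% of its counts lay in ribosomal RNA genes and 0.0361% in mitochondrial genes, against 0.101% to 0.116% and 0.0111% to 0.0153% in the other 5 libraries. In W6 replicate 1, 33 genes were more than 2-fold above every other library of the 6, and 28 of those were organellar. Summed levels of guard cell markers were 173 to 191 CPM (counts after scaling for library size) in W6 and 192 to 220.1 CPM in mock, and those of phloem companion cell markers 246 to 265 CPM in W6 and 247 to 305 CPM in mock, with 0 of the 9 genes called. The 7 root markers summed to 207 to 222 CPM in W6 and 174 to 220 CPM in mock. Of these 2 passed the filter, PYK10 and SCR, and neither was called. EXPA7 and RHD6, which mark root hair cells, were at 0 in all 6 libraries. Flower markers summed to 5.11 to 6.03 CPM in W6 and 3.41 to 5.77 CPM in mock.

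Because of mock replicate 3, the gene tests, list counts and list medians were also computed with the other 2 mock libraries alone. The promoter shares, the shares of genes with separate groups and the overlaps with calls between other densities were not. The fit without mock replicate 3 called 293 genes higher, or 1.5% of those tested, and 176 genes lower, or 0.899%. The fits shared 225 calls, 176 higher and 49 lower. A further 244 genes were called only without mock replicate 3, and 24 only with it. Of those 24, 17 were lower and 7 higher. Leaving out another library lowered the number of calls from the 249 of the main fit to 161 without W6 replicate 2, 147 without W6 replicate 3, 166 without mock replicate 1 and 156 without mock replicate 2, and gave 258 without W6 replicate 1.

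**Figure D1:**
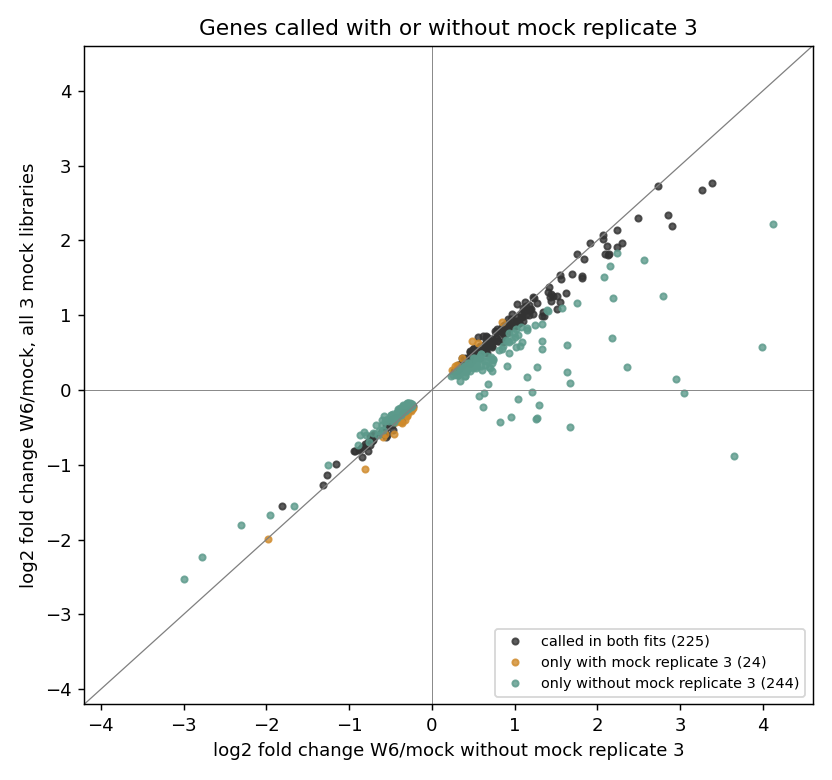
Log2 fold change of W6 over mock without mock replicate 3 (horizontal axis) and with all 3 mock libraries (vertical axis), 1 point per gene called in either fit; colours mark the 225 genes called in both fits and those called in 1 fit only. Points called in both fits lie near the diagonal, and the 244 genes called only without mock replicate 3 lie mostly farther from 0 on the horizontal axis than on the vertical one.

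The gene with the smallest p was AT2G20670, which encodes a protein of the DUF506 family, a plant family of little known function. It had 243, 269.8 and 247 CPM in W6 plants, against 39.8, 36.4 and 38.1 CPM in mock plants. The 6 values fell into separate ranges, and each group was tight. The difference was a log2 fold change of 2.73 ± 0.09 (adjusted p = 4.3e-13), and it was 2.74 without mock replicate 3. BT2 (AT3G48360), which encodes a BTB and TAZ domain protein that is known to be induced when sugar is low, had 21.3, 21.1 and 22.4 CPM in W6 plants, against 2.57, 5.06 and 5.34 CPM in mock plants. Mock replicate 1 was the lowest of all, and no W6 library came near the mock range. BT2 gave a log2 fold change of 2.30 ± 0.22 (adjusted p = 7.2e-05), and 2.49 without mock replicate 3. The 250 bases before the start of these genes are shown because of known elements in them. GATAA, read on the opposite strand as TTATC, is the core of the I-box of light-regulated genes and of the sugar-repressed element, and the evening element AAATATCT is bound by clock factors. The sequences are from RefSeq (TAIR10.1), both genes lie on the minus strand, AT2G20670 at chr2:8913748-8913997 and BT2 at chr3:17910739-17910988, and capitals mark GATAA on either strand (TTATC on the strand shown) and, in BT2, the evening element read on the opposite strand (AGATATTT).
AT2G20670: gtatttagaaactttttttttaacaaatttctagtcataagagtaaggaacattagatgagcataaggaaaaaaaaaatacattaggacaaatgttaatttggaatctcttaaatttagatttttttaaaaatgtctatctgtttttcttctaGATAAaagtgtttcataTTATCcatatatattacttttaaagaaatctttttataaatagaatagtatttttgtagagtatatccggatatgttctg
BT2: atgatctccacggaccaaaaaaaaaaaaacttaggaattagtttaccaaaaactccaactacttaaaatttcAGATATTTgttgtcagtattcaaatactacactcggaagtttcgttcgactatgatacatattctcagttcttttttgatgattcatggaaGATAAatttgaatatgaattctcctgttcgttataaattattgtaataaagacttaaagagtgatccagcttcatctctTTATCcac
In AT2G20670 GATAA stood at base -97 and, on the opposite strand, at base -80 from the start. In BT2 the evening element stood at base -178 and GATAA at bases -87 and -8, with no overlap between the motifs.

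Over the 300 bases around the start (250 before and 50 after), GATAA was present on either strand in 77.9% of 181 promoters of genes that rose, in 58.5% of 65 promoters of genes that fell and in 61.5% of 18863 promoters of genes tested. The evening element was present in 11% of promoters of genes that rose, in 4.62% of those that fell and in 6.09% of all. The shares of the W-box core TTGAC, bound by WRKY factors of the immune response, were 50.8% among genes that rose, 52.3% among genes that fell and 50.7% among all. The G-box CACGTG was found in 7.18% of the promoters of genes that rose, 10.8% of those that fell and 8.89% of all. In the 250 bases before the start alone, GATAA was in 68% of the promoters of genes that rose, 52.3% of those that fell and 55.4% of all. These shares describe letters in a window and were not tested.

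Other DUF506 genes rose with AT2G20670. Of 13 members 10 were tested, and 5 rose and none fell in either fit. Over all genes tested 0.943% rose and 0.34% fell, or 1.5% and 0.899% without mock replicate 3. The family median was 0.355 (log2), or 0.421 without mock replicate 3. AT3G07350 had 24.6, 19.1 and 17.75 CPM in W6 plants, against 5.58, 4.24 and 5.34 CPM in mock plants. It gave a log2 fold change of 2.02 ± 0.16 (adjusted p = 1.1e-06). AT4G32480 had 13.3, 16.4 and 13.97 CPM in W6 plants, against 7.59, 5.004 and 5.88 CPM in mock plants. All 3 of its W6 values lay above the mock values, with a log2 fold change of 1.25 ± 0.16 (adjusted p = 0.00018). AT2G38820 and AT1G77145 passed the test with smaller margins, at adjusted p values of 0.045 and 0.049. Neither was called with limma voom or with a replicate block. The call of AT2G38820 was also lost without the robust option. That of AT1G77145 was also lost with either other filter on low counts and in both fits of only the 2 groups compared. AT2G38820 was called in 8 of the 17 alternative settings (adjusted p 0.007 to 0.23) and not without W6 replicate 1 (log2 fold change 0.47), without W6 replicate 2 (0.41), without W6 replicate 3 (0.42), without mock replicate 1 (0.36), without mock replicate 2 (0.40) or in the fit of only the 2 groups compared (0.44). AT1G77145 was called in 6 of the 17 alternative settings, and leaving out any library other than mock replicate 3 lost the call (log2 fold change 0.75 to 0.89).

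KMD1 (AT1G80440) had 208, 247 and 247 CPM in W6 plants, against 56.5, 55.5 and 55.4 CPM in mock plants. The mock values were almost equal, mock replicate 3 included, and the lowest W6 value was far above them. KMD1 gave a log2 fold change of 2.07 ± 0.086 (adjusted p = 1.5e-11) and 2.07 without mock replicate 3. KMD2 (AT1G15670) had 21.8, 30.3 and 25.7 CPM in W6 plants, against 10.9, 13.4 and 15.01 CPM in mock plants, with a log2 fold change of 0.98 ± 0.13 (adjusted p = 0.00052) and 1.09 without mock replicate 3. KMD4 (AT3G59940), whose annotated exon bases all overlap another gene so that its reads are uncertain, had 0.492, 0.701 and 0.329 CPM in W6 plants, against 0.223, 0.0511 and 0.0912 CPM in mock plants. All values were under 1 CPM, those of W6 above those of mock, and the gene was not called (log2 fold change 2.05 ± 0.69, adjusted p = 0.25). KMD3 was at 0 in all 6 libraries. Other list members, among them MYC2, AMT1.1 and F3H, were also at 0 in all 6 libraries. Such a 0 was therefore not read as a lack of expression, and its cause was not tested.

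Of 9 tested markers of sugar starvation and darkness, 2 rose, SEN1 and DIN10, and none fell, against 0.943% higher and 0.34% lower over all genes. The list median was 0.056 (log2), against 0.339 without mock replicate 3, where GDH2 was called as well. Over this list mock replicate 3 lay 0.548 (log2) above the mean of the other mock libraries, and the W6 libraries 0.153, 0.392 and 0.425 above it. SEN1 (AT4G35770), a gene known to rise in darkness and in ageing leaves, had 39.8, 55.4 and 54.01 CPM in W6 plants, against 8.71, 14.1 and 16.2 CPM in mock plants. Each W6 value was more than 2-fold above the highest mock value. SEN1 gave a log2 fold change of 1.92 ± 0.25 (adjusted p = 0.002), and 2.12 without mock replicate 3. In the fit of only the 2 groups compared SEN1 was not called (log2 fold change 1.93, adjusted p = 0.063). DIN10 (AT5G20250), which encodes a protein related to raffinose synthases, had 268, 392 and 355 CPM in W6 plants, against 164, 188 and 204 CPM in mock plants, with a log2 fold change of 0.87 ± 0.12 (adjusted p = 0.0004). ASN1 (AT3G47340), the dark-induced asparagine synthetase, had 17.3, 36.4 and 29.1 CPM in W6 plants, against 17.98, 18.9 and 65.2 CPM in mock plants. The highest of the 6 libraries was mock replicate 3, the groups overlapped, and the log2 fold change was -0.31 ± 0.47 (adjusted p = 0.86), or 0.58 without that library (adjusted p = 0.43, over all alternatives 0.091 to 0.97).

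Factors that act with SnRK1 or sense sugar phosphates were called singly. The counts in these lists are to be read against 0.943% higher and 0.34% lower over all genes. BZIP1 (AT5G49450), a bZIP factor of the low-energy response, had 30.8, 36.99 and 37.5 CPM in W6 plants, against 8.88, 13.9 and 19.6 CPM in mock plants. The value of mock replicate 3 lay between the other mock libraries and the W6 libraries, and BZIP1 gave a log2 fold change of 1.301 ± 0.20 (adjusted p = 0.0048) and 1.62 without it. In the fit of only the 2 groups compared BZIP1 was not called (log2 fold change 1.31, adjusted p = 0.29). It was the only one of 9 tested C and S1 bZIP genes that was called, while BZIP53, another S1 member, was called only without mock replicate 3 (log2 0.52, adjusted p = 0.00035, over all alternatives 0.00035 to 0.56). TPS8 (AT1G70290), a class II trehalose-phosphate synthase-like protein, was the only called gene of 17 tested in trehalose metabolism, with TPS11 added without mock replicate 3. It had 182, 225 and 211 CPM in W6 plants, against 99.3, 101 and 126 CPM in mock plants, in ranges that did not touch, with a log2 fold change of 0.92 ± 0.087 (adjusted p = 2e-06). Among 18 tested sugar transporters SWEET12 (AT5G23660), which exports sucrose towards the phloem, rose with a log2 fold change of 0.43 ± 0.091 (adjusted p = 0.017). SWEET12 was called in 14 of the 17 alternative settings (adjusted p 0.003 to 0.15) and not without W6 replicate 3 (log2 fold change 0.35), without mock replicate 1 (0.37) or in the fit of only the 2 groups compared (0.44). In this list STP14 rose (log2 fold change 0.57) and SWEET1 fell (-0.56) without mock replicate 3. The 6 tested SnRK1 subunit genes, the 24 starch genes, the 17 autophagy genes and the 20 genes of branched-chain amino acid, lysine and proline breakdown had none called, and their medians lay between -0.015 and 0.093 (log2). Without mock replicate 3 ATG8E of autophagy (log2 fold change 0.54), BCAT2 of branched-chain amino acid breakdown (0.83) and LKR of lysine breakdown (0.71) rose. PRODH1 (AT3G30775), proline dehydrogenase, had 18.1, 20.6 and 19.4 CPM in W6 plants, against 21.1, 24.7 and 26.2 CPM in mock plants. The W6 values lay just under the mock values, and the gene was not called (adjusted p = 0.37).

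**Figure D2:**
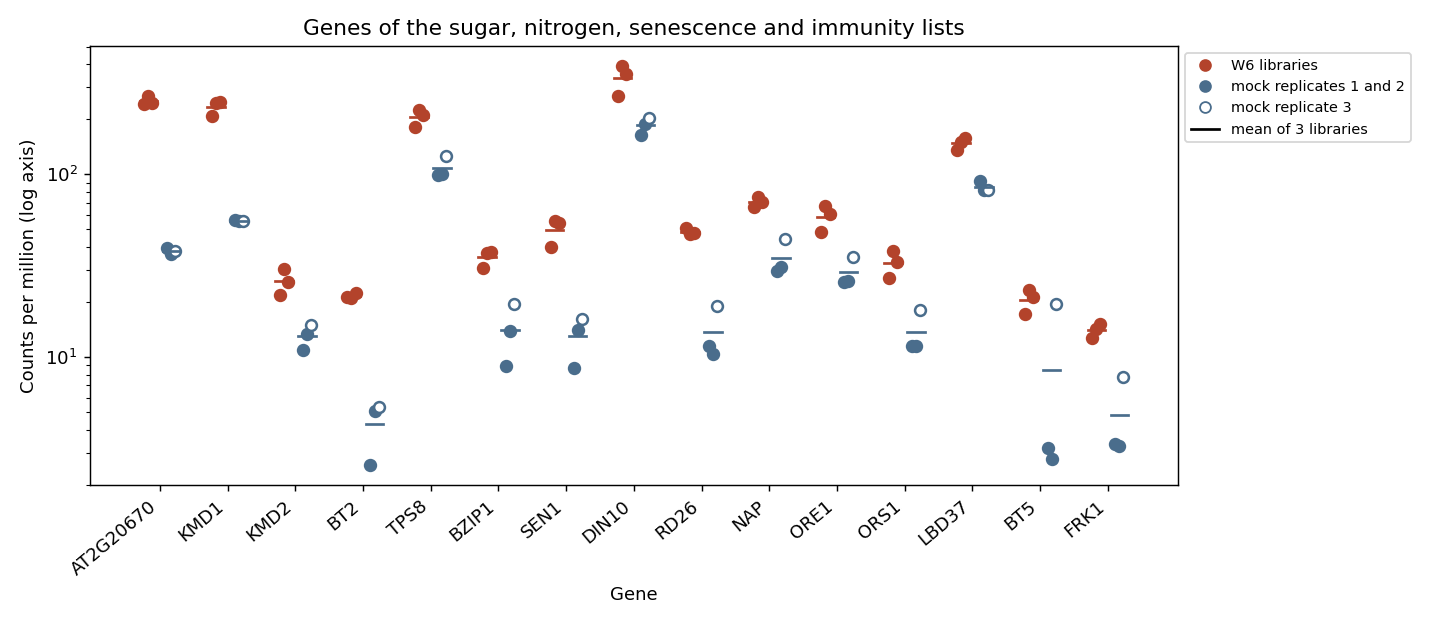
CPM on a log axis for 15 genes, most of them higher in W6, with W6 libraries as red points, mock replicates 1 and 2 as filled blue points, mock replicate 3 as an open point and lines at the means of 3 libraries. Mock replicate 3 sits with the other mock libraries for AT2G20670, KMD1 and LBD37 and near the W6 libraries for BT5.

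NAC transcription factors of senescence and stress rose in part: 4 of 11 tested members rose and none fell, against 0.943% higher and 0.34% lower over all genes. The list median was 0.313 (log2), or 1.048 without mock replicate 3. Mock replicate 3 itself lay above the other mock libraries over this list, by a median of 0.796 (log2), against 0.662 to 1.19 in the W6 libraries. Of 72 tested genes annotated as NAC domain proteins, counted after the values had been seen, 5 rose and none fell. The median of these 72 genes was -0.007 (log2), or 0.05 without mock replicate 3. NAP (AT1G69490), a regulator that promotes leaf ageing, had 66.04, 75.4 and 70.8 CPM in W6 plants, against 29.7, 31.1 and 44.03 CPM in mock plants. The highest mock value, that of replicate 3, was still below the W6 range, with a log2 fold change of 1.01 ± 0.12 (adjusted p = 0.00013). ORE1 (AT5G39610), another senescence regulator, had 48.2, 66.7 and 60.9 CPM in W6 plants, against 25.6, 26.2 and 35.5 CPM in mock plants. It gave a log2 fold change of 1.01 ± 0.16 (adjusted p = 0.0047), and ORS1 (AT3G29035), its close relative, gave a log2 fold change of 1.26 ± 0.17 (adjusted p = 0.0015). Neither was called in the fit of only the 2 groups compared, at adjusted p values of 0.053 for ORE1 and 0.092 for ORS1. RD26 (AT4G27410), a NAC factor of drought and abscisic acid responses, had 50.8, 47.03 and 47.8 CPM in W6 plants, against 11.6, 10.4 and 19.1 CPM in mock plants. The W6 values were close together and the mock values were spread, and RD26 gave a log2 fold change of 1.81 ± 0.19 (adjusted p = 0.00024). NAC055 (AT3G15500) was called only without mock replicate 3, at a log2 fold change of 2.36, against 0.31 with it. In the 8 tested genes of chlorophyll breakdown none was called, while without mock replicate 3 PPH rose (0.32) and SGRL fell (-0.33).

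Type-A response regulators lay on the lower side in W6. All 8 tested members had a log2 fold change below 0, while 9027 of all 19404 genes tested were above 0. Members measured in the same libraries are not independent. Of the 8 members 3 fell (ARR6, ARR7 and ARR16), against 0.34% of all genes. The list median was -0.522, or -0.404 without mock replicate 3, where ARR6 and ARR7 were called. ARR6 (AT5G62920) had 14.6, 10.5 and 10.5 CPM in W6 plants, against 28.6, 30.2 and 26.9 CPM in mock plants. W6 replicate 1 was the highest of its group and still well under the lowest mock value. ARR6 gave a log2 fold change of -1.27 ± 0.12 (adjusted p = 2.3e-06), and -1.31 without mock replicate 3. Only 76.1% of its exon bases are its own, so its counts are uncertain. ARR7 (AT1G19050) had 18.24, 15.2 and 16.3 CPM in W6 plants, against 25.6, 31.00 and 30.7 CPM in mock plants, again without overlap, with a log2 fold change of -0.81 ± 0.13 (adjusted p = 0.0025) and -0.77 without mock replicate 3. ARR16 (AT2G40670) had 6.64, 6.96 and 8.27 CPM in W6 plants, against 9.55, 10.5 and 12.8 CPM in mock plants. Its highest library was mock replicate 3, and ARR16 was called in 11 of the 17 alternative settings (adjusted p 0.0055 to 0.14) and not without W6 replicate 1 (log2 fold change -0.53), without W6 replicate 2 (-0.56), without mock replicate 3 (-0.46) or in the fit of only the 2 groups compared (-0.58). The call was also lost in that last fit without mock replicate 3, and without both mock replicate 3 and W6 replicate 1.

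The promoters of ARR6 and ARR7 are shown because type-B regulators bind DNA at the core GATT, here searched as AGATTT. The sequences are again the 250 bases before the start from RefSeq (TAIR10.1), both on the minus strand, ARR6 at chr5:25254319-25254568 and ARR7 at chr1:6579315-6579564. Capitals mark AGATTT or, on the opposite strand, AAATCT.
ARR6: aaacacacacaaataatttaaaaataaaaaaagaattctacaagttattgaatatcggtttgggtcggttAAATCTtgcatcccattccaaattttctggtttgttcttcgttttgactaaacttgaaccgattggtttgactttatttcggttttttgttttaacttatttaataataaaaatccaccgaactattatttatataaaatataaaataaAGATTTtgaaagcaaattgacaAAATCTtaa
ARR7: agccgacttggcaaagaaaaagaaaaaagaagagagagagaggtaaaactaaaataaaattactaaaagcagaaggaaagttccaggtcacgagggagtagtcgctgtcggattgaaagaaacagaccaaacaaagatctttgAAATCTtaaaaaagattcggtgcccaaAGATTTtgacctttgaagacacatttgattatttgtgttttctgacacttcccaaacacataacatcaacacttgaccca
In ARR6 the motif stood at base -31 and, on the opposite strand, at bases -180 and -9, and in ARR7 at base -80 and, on the opposite strand, at base -107, without overlap. AGATTT was present within the 300 bases around the start in 35.9% of promoters of genes that rose, 40% of those that fell and 38% of all.

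Among the remaining type-A regulators ARR5 (AT3G48100) had 11.2, 8.36 and 8.16 CPM in W6 plants, against 10.7, 12.7 and 15.7 CPM in mock plants, and the groups overlapped (log2 fold change -0.50 ± 0.13, adjusted p = 0.077). ARR4 (AT1G10470) had 82.02, 55.95 and 61.1 CPM in W6 plants, against 82.5, 86.9 and 80.02 CPM in mock plants. Its W6 replicate 1 lay among the mock values while the other W6 libraries were lower, and it was not called (adjusted p = 0.36). ARR8 and ARR9, whose reads are uncertain for shared exon bases, had log2 fold changes of -0.061 and -0.11, and ARR15 had -0.54, with none of them called. ARR3 did not pass the filter. Upstream steps were not called: 0 of 12 tested receptor, phosphotransfer and type-B genes and 0 of 12 genes of cytokinin synthesis, breakdown and transport passed, with medians of 0.011 and -0.077 (log2). CRF5 (AT2G46310), a cytokinin response factor, had 3.98, 2.06 and 2.35 CPM in W6 plants, against 4.69, 5.16 and 7.62 CPM in mock plants. W6 replicate 1 was close to the lowest mock value, and mock replicate 3 was the highest of the 6. CRF5 gave a log2 fold change of -1.06 ± 0.24 (adjusted p = 0.028), and it was called in 11 of the 17 alternative settings (adjusted p 0.0038 to 0.19) and not without W6 replicate 2 (log2 fold change -0.88), without W6 replicate 3 (-0.95), without mock replicate 2 (-1.14), without mock replicate 3 (-0.81) or in the fit of only the 2 groups compared (-1.05). The call was also lost in that last fit without mock replicate 3. CRF2 was the cytokinin response factor called without mock replicate 3, at a log2 fold change of -0.71.

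**Figure D3:**
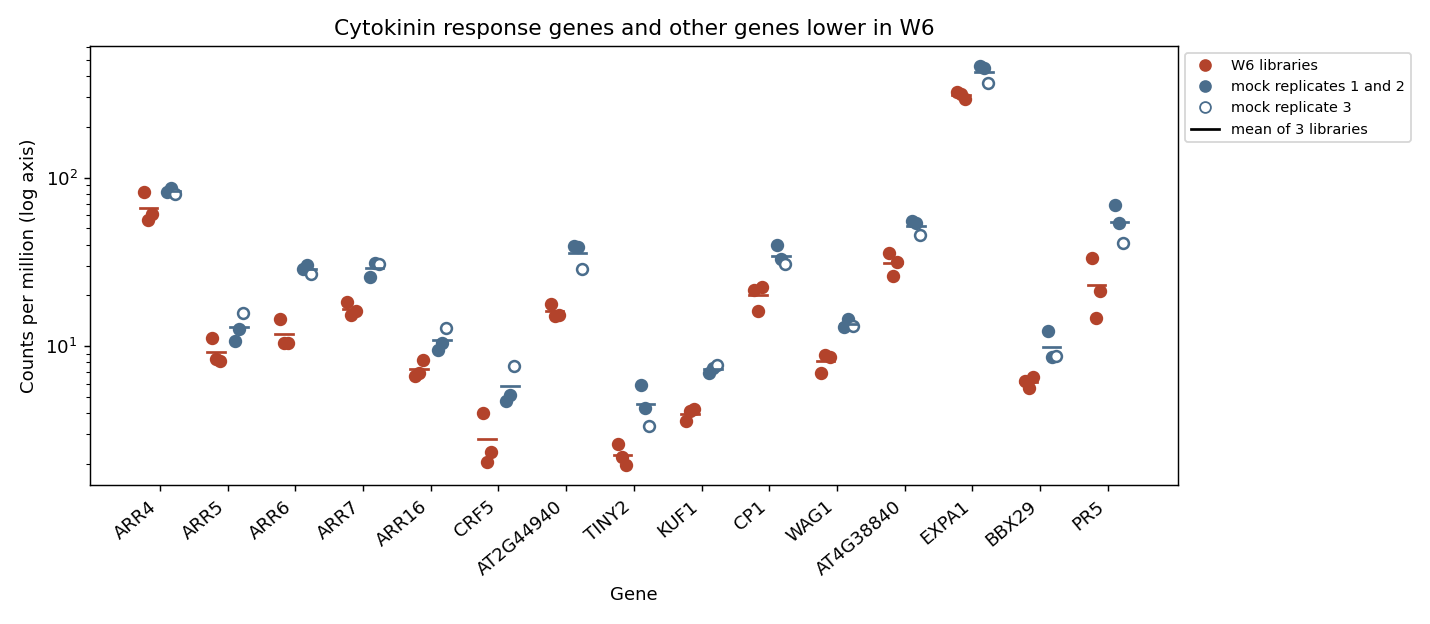
CPM on a log axis for 15 genes, cytokinin response genes on the left and other genes lower in W6 on the right, with red points for W6 libraries, filled blue points for mock replicates 1 and 2, an open point for mock replicate 3 and lines at the means. ARR6, ARR7 and AT2G44940 show separate ranges, ARR4 and ARR5 overlap, and PR5 has wide spread in both groups.

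AT2G44940, an AP2/ERF-type transcription factor gene, had 17.9, 15.2 and 15.4 CPM in W6 plants, against 39.3, 38.6 and 28.9 CPM in mock plants. Mock replicate 3 was the lowest mock library, yet every W6 library was well under it. The change was a log2 fold change of -1.14 ± 0.12 (adjusted p = 1.3e-05), and -1.27 without mock replicate 3. KUF1 (AT1G31350), which codes for an F-box protein and responds to karrikins, had 3.59, 4.11 and 4.22 CPM in W6 plants, against 6.92, 7.41 and 7.76 CPM in mock plants, with a log2 fold change of -0.89 ± 0.16 (adjusted p = 0.0046). CP1 (AT5G49480), a calcium-binding protein of salt responses, had 21.5, 16.2 and 22.5 CPM in W6 plants, against 39.98, 33.04 and 30.6 CPM in mock plants. It fell with a log2 fold change of -0.78 ± 0.13 (adjusted p = 0.0033). TINY2 (AT5G11590), an AP2/ERF-type factor of the DREB group, gave a log2 fold change of -0.99 ± 0.24 (adjusted p = 0.046), and it was called in 7 of the 17 alternative settings (adjusted p 0.0098 to 0.28) and not without W6 replicate 1 (log2 fold change -1.10), without W6 replicate 2 (-0.97), without W6 replicate 3 (-0.90), without mock replicate 1 (-0.76), without mock replicate 2 (-1.02) or in the fit of only the 2 groups compared (-0.98). The call was also lost with limma voom, with a replicate block, with upper-quartile factors and without the robust option.

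WAG1 (AT1G53700), a kinase that acts on auxin transport proteins, had 6.93, 8.83 and 8.65 CPM in W6 plants, against 13.01, 14.4 and 13.1 CPM in mock plants. All W6 values were below all mock values, with a log2 fold change of -0.73 ± 0.14 (adjusted p = 0.006). AT4G38840, a SAUR-like auxin-responsive gene, had 35.6, 26.2 and 31.8 CPM in W6 plants, against 55.3, 54.03 and 45.7 CPM in mock plants, with a log2 fold change of -0.73 ± 0.10 (adjusted p = 0.00035). Of 52 tested SAUR-like genes, counted after the values had been seen, 2 fell and none rose, against 0.34% lower over all genes. Without mock replicate 3, 6 fell, against 0.899%. CYP78A6 (AT2G46660), a cytochrome P450 that promotes seed and organ growth, had 6.10, 3.97 and 4.49 CPM in W6 plants, against 8.38, 9.45 and 7.48 CPM in mock plants. It gave a log2 fold change of -0.80 ± 0.18 (adjusted p = 0.025) and was called in 12 of the 17 alternative settings (adjusted p 0.0031 to 0.17) and not without W6 replicate 2 (log2 fold change -0.67), without W6 replicate 3 (-0.74), without mock replicate 1 (-0.80), without mock replicate 2 (-0.71) or in the fit of only the 2 groups compared (-0.79). EXPA1 (AT1G69530), an expansin that loosens cell walls, fell with a log2 fold change of -0.45 ± 0.10 (adjusted p = 0.029), and it was called in 11 of the 17 alternative settings (adjusted p 0.0011 to 0.19) and not without W6 replicate 1 (log2 fold change -0.48), without W6 replicate 2 (-0.47), without W6 replicate 3 (-0.41), without mock replicate 1 (-0.39), without mock replicate 2 (-0.41) or in the fit of only the 2 groups compared (-0.45). In the list of 26 tested auxin and cell expansion genes EXPA1 was the only call, and without mock replicate 3 EXPA5 (-0.33) and EXPA11 (-0.45) fell as well. The list median was 0.002 (log2), at the level of all genes. All 16 tested genes of the cell cycle and DNA replication had a log2 fold change above 0, against 9027 of all 19404 genes tested. Their median was 0.232, or 0.202 without mock replicate 3, and none was called. PCNA1 (AT1G07370), the sliding clamp of DNA replication, had 15.6, 13.5 and 12.9 CPM in W6 plants, against 12.2, 9.80 and 11.4 CPM in mock plants, with ranges that did not touch and an adjusted p of 0.22.

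Further genes among the 15 largest decreases were ERF15, AT1G76240, AT3G27540 and AT3G44450. ERF15 (AT2G31230), an ethylene response factor, had 11.1, 7.89 and 9.04 CPM in W6 plants, against 18.5, 15.01 and 14.2 CPM in mock plants, with a log2 fold change of -0.77 ± 0.13 (adjusted p = 0.0019). AT1G76240, a DUF241 protein, gave a log2 fold change of -0.74 ± 0.11 (adjusted p = 0.00055). AT3G27540, annotated as a glycosyltransferase, gave a log2 fold change of -0.82 ± 0.16 (adjusted p = 0.007) and was called in 15 of the 17 alternative settings (adjusted p 0.00099 to 0.08) and not without W6 replicate 3 (log2 fold change -0.76) or without mock replicate 2 (-0.66). AT3G44450, an uncharacterised protein, had 33.1, 21.7 and 29.2 CPM in W6 plants, against 56.1, 51.4 and 40.1 CPM in mock plants. It gave a log2 fold change of -0.81 ± 0.17 (adjusted p = 0.045), and it was called in 10 of the 17 alternative settings (adjusted p 6.4e-05 to 0.22) and not without W6 replicate 2 (log2 fold change -0.66), without W6 replicate 3 (-0.84), without mock replicate 1 (-0.71), without mock replicate 2 (-0.78) or in the fit of only the 2 groups compared (-0.81). The call was also lost with no filter on low counts and with upper-quartile factors.

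AT5G21940, OXS3, AT5G19120, AT5G50450 and AT3G18773 were among the 15 largest increases. AT5G21940, of unknown function and with 90.5% of its exon bases its own, so that its counts are uncertain, had 114, 118 and 124 CPM in W6 plants, against 11.8, 11.03 and 28.9 CPM in mock plants. Mock replicate 3 was more than 2-fold above the other mock libraries, and the log2 fold change was 2.77 ± 0.29 with it (adjusted p = 0.00052) and 3.38 without it. OXS3 (AT5G56550), a nuclear protein that raises stress tolerance, had 17.5, 21.01 and 20.2 CPM in W6 plants, against 3.07, 2.35 and 5.98 CPM in mock plants. Here too mock replicate 3 was the highest mock library, with a log2 fold change of 2.34 ± 0.24 (adjusted p = 9e-05) and 2.86 without it. Neither AT5G21940 nor OXS3 was called in the fit of only the 2 groups compared (log2 fold changes 2.77 and 2.35, adjusted p = 0.17 and 0.065). AT5G19120, an aspartyl protease-like protein, had 103, 120.4 and 109 CPM in W6 plants, against 24.96, 22.01 and 28.6 CPM in mock plants, with a log2 fold change of 2.14 ± 0.12 (adjusted p = 3.2e-08). AT5G50450, with a MYND-type zinc finger, had 31.3, 33.02 and 38.7 CPM in W6 plants, against 9.44, 11.8 and 13.8 CPM in mock plants, and it gave a log2 fold change of 1.55 ± 0.12 (adjusted p = 2.4e-07). AT3G18773, a RING finger protein with 85.9% of its exon bases its own and so uncertain, gave a log2 fold change of 1.75 ± 0.12 (adjusted p = 4.7e-08).

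Low-level genes completed the 15 largest increases. AT5G03615, a gene for a non-coding RNA, had 2.999, 5.51 and 3.29 CPM in W6 plants, against 0.949, 1.38 and 1.004 CPM in mock plants. AT5G64190, of unknown function in plants, had 2.41, 3.46 and 2.46 CPM in W6 plants, against 0.614, 0.562 and 1.004 CPM in mock plants. In both genes all W6 values were above all mock values, and the log2 fold changes were 1.82 ± 0.27 (adjusted p = 0.0004) and 1.91 ± 0.28 (adjusted p = 0.00043). The C1 domain proteins AT2G17740 and AT2G44370 had log2 fold changes of 2.19 ± 0.46 (adjusted p = 0.041) and 1.97 ± 0.42 (adjusted p = 0.025). These calls were fragile. Neither was made with limma voom. That of AT2G17740 was also lost with no filter on low counts and with a replicate block. That of AT2G44370 was also lost in the fit of only the 2 groups compared without mock replicate 3. AT2G17740 was called in 8 of the 17 alternative settings (adjusted p 0.00027 to 0.19) and not without W6 replicate 1 (log2 fold change 2.26), without W6 replicate 2 (2.24), without W6 replicate 3 (2.06), without mock replicate 1 (1.78), without mock replicate 2 (2.13) or in the fit of only the 2 groups compared (2.21). AT2G44370 was called in 10 of the 17 alternative settings (adjusted p 0.00023 to 0.14) and not without W6 replicate 2 (log2 fold change 1.55), without W6 replicate 3 (1.99), without mock replicate 1 (2.09), without mock replicate 2 (1.61) or in the fit of only the 2 groups compared (1.97).

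LBD37 and LBD38, repressors of nitrate-response genes that are themselves induced by nitrogen, rose. LBD37 (AT5G67420) had 135, 150.4 and 158 CPM in W6 plants, against 92.2, 82.3 and 81.7 CPM in mock plants. The groups were apart and mock replicate 3 was the lowest library, with a log2 fold change of 0.79 ± 0.073 (adjusted p = 1.4e-06). LBD38 (AT3G49940) had 28.1, 28.1 and 28.4 CPM in W6 plants, against 17.37, 18.7 and 18.98 CPM in mock plants, with a log2 fold change of 0.62 ± 0.083 (adjusted p = 0.00016). They were the only 2 of 19 tested genes of nitrate uptake and nitrogen assimilation that were called, against 0.943% higher and 0.34% lower over all genes. The ammonium transporter gene AMT1.2 was lower (log2 fold change -0.58) without mock replicate 3, and the list median was 0.088 (log2). NIA2 (AT1G37130), the main nitrate reductase gene, had a log2 fold change of 0.20 ± 0.083 (adjusted p = 0.38). No gene of phosphate starvation was called: the median over 18 genes was -0.291, or -0.434 without mock replicate 3, where SPX3 (-2.77) and SQD2 (-0.47) fell. SPX3 (AT2G45130), an SPX domain protein that rises in phosphate-starved plants, had 0.197, 0.187 and 0.0548 CPM in W6 plants, against 1.73, 0.408 and 0.0912 CPM in mock plants. Mock replicate 3 lay within the W6 range while the other mock libraries were far above.

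Most tested light and clock genes were not called. BBX14 (AT1G68520), a B-box protein, had 338, 349 and 349 CPM in W6 plants, against 190.3, 212 and 186 CPM in mock plants, with a log2 fold change of 0.82 ± 0.061 (adjusted p = 8.6e-08). Of its exon bases 87.4% are its own, so its counts are uncertain. BBX29 (AT5G54470), a B-box protein of light signalling, had 6.20, 5.65 and 6.52 CPM in W6 plants, against 12.3, 8.63 and 8.76 CPM in mock plants. It gave a log2 fold change of -0.69 ± 0.15 (adjusted p = 0.028) and was called in 12 of the 17 alternative settings (adjusted p 0.0084 to 0.21) and not without W6 replicate 1 (log2 fold change -0.70), without W6 replicate 2 (-0.64), without W6 replicate 3 (-0.74), without mock replicate 1 (-0.51) or in the fit of only the 2 groups compared (-0.68). They were the 2 calls among 22 tested B-box and light signalling genes, 1 in each direction, against 0.943% higher and 0.34% lower over all genes. The list median was -0.197 (log2). Without mock replicate 3 BBX30 (log2 fold change -1.67) and BBX18 (-0.42) of this list fell as well, as did CDF1 of the evening clock list (-0.47). Of 20 tested genes annotated as B-box proteins, counted after the values had been seen, 2 rose and 1 fell. BBX17, which is not in the list, rose beside BBX14. Without mock replicate 3, 3 of these genes rose, BBX13 among them, and 3 fell. All 12 tested morning clock genes had a log2 fold change below 0 and none was called (9027 of all 19404 genes tested were above 0). CCA1 (AT2G46830), a morning clock repressor, had 50.9, 61.04 and 55.9 CPM in W6 plants, against 79.2, 72.3 and 63.8 CPM in mock plants. LHY (AT1G01060), its partner, had 4.57, 3.18 and 3.67 CPM in W6 plants, against 6.03, 5.36 and 9.95 CPM in mock plants. PRR9 (AT2G46790), which represses both, had 36.3, 41.2 and 36.3 CPM in W6 plants, against 57.4, 44.9 and 42.9 CPM in mock plants. Their log2 fold changes were -0.36 ± 0.096 (adjusted p = 0.095), -0.91 ± 0.23 (adjusted p = 0.071) and -0.35 ± 0.088 (adjusted p = 0.066). Without mock replicate 3 CCA1 and PRR9 were called lower (-0.43 and -0.43), and LHY was not (-0.58). TOC1 (AT5G61380), an evening gene, had a log2 fold change of 0.11 ± 0.13 (adjusted p = 0.82). All 22 tested genes of light harvesting and carbon fixation had values below 0, with a median of -0.125, or -0.204 without mock replicate 3, and in mock replicate 3 the list lay 0.29 (log2) below the other mock libraries. Without that library PSBS, a photosystem II protein of photoprotection, and RBCS3B, a small subunit of Rubisco, were called lower (log2 fold changes -0.33 and -0.40).

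Most tested immune genes were not called. In the list of pattern-triggered immunity 1 of 23 tested genes rose, ERF104, against 0.943% of all genes. The list median was -0.069 (log2), against 0.428 without mock replicate 3. In that fit FRK1, MLO12, ERF6 and MKK9 were called higher too, against 1.5% of all genes. Over this list mock replicate 3 was 0.999 (log2) above the mean of the other mock libraries, and the W6 libraries were 0.277 to 0.498 above it. FRK1 (AT2G19190), a receptor kinase gene used as a readout of pattern-triggered immunity, had 12.6, 14.2 and 15.1 CPM in W6 plants, against 3.35, 3.27 and 7.80 CPM in mock plants. The groups did not overlap, but the highest mock value, that of replicate 3, was more than 2-fold above the others. FRK1 had a log2 fold change of 1.51 ± 0.37 (adjusted p = 0.12) with it and 2.08 without it (adjusted p = 0.024, over all alternatives 2.3e-06 to 0.36). ERF104 (AT5G61600), an ethylene response factor downstream of flagellin sensing, gave a log2 fold change of 1.08 ± 0.22 (adjusted p = 0.039) and was called in 10 of the 17 alternative settings (adjusted p 2.2e-08 to 0.47) and not without W6 replicate 1 (log2 fold change 1.16), without W6 replicate 2 (1.07), without W6 replicate 3 (1.01), without mock replicate 1 (0.87), without mock replicate 2 (0.96) or in the fit of only the 2 groups compared (1.09). The call was also lost with no filter on low counts. MLO12 (AT2G39200), a membrane protein of the MLO family, had 8.998, 12.7 and 10.3 CPM in W6 plants, against 3.91, 2.86 and 37.6 CPM in mock plants. Its mock replicate 3 was the highest library, and the log2 fold change was 1.67 without it.

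No gene of the 29 tested in salicylic acid signalling and systemic acquired resistance was called in either fit. Their median was -0.133 (log2), or 0.321 without mock replicate 3, in which the list lay 1.408 (log2) above the other mock libraries, while the W6 libraries lay at 0.502, -0.203 and 0.417. PR1 (AT2G14610), a marker of salicylic acid responses, had 1.18, 0.0934 and 4.99 CPM in W6 plants, against 0, 0 and 0.912 CPM in mock plants, counts too low and too uneven for a call (adjusted p = 0.65). PR2 (AT3G57260), a glucanase, had 23.2, 8.73 and 13.3 CPM in W6 plants, against 27.4, 23.9 and 34.5 CPM in mock plants, with W6 replicate 1 just under the mock range and the other W6 libraries far under it (adjusted p = 0.62). PR5 (AT1G75040), a thaumatin-like protein, had 33.5, 14.7 and 21.3 CPM in W6 plants, against 69.1, 53.8 and 41.1 CPM in mock plants. Every W6 value was under every mock value, and the spread within groups left it uncalled (log2 fold change -1.24 ± 0.41, adjusted p = 0.31). None of the 19 tested jasmonic acid and ethylene genes was called in either fit, and the list lay 0.694, 0.159 and 0.153 (log2) above mock replicates 1 and 2 in the W6 libraries and 0.726 above them in mock replicate 3. VSP2 and VSP1 were highest in W6 replicate 1, the library with the raised ribosomal RNA share: VSP2 (AT5G24770), a wound and jasmonate marker, had 112, 14.3 and 17.3 CPM in W6 plants, against 11.2, 7.41 and 15.2 CPM in mock plants, and VSP1 (AT5G24780) had 25.6, 1.87 and 1.31 CPM in W6 plants, against 1.79, 0.408 and 1.60 CPM in mock plants. Neither was called.

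**Figure D4:**
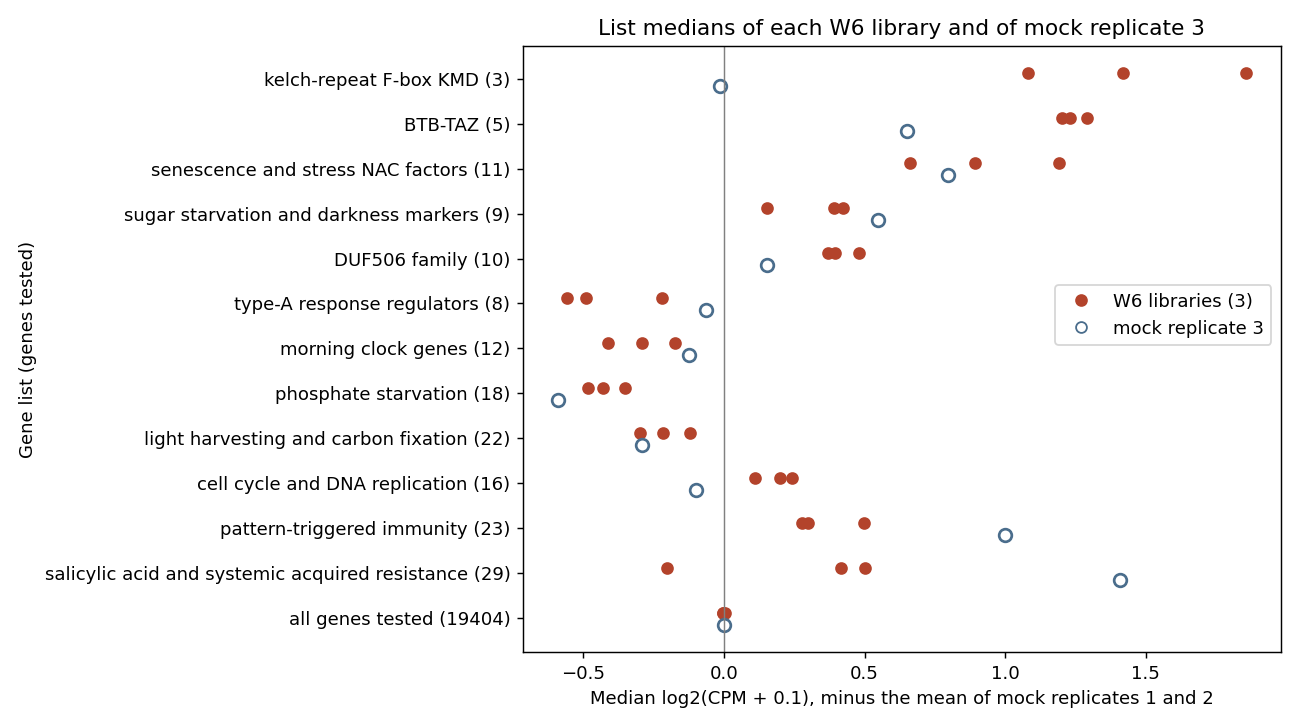
Median over each list's tested genes of log2(CPM + 0.1), minus the mean of mock replicates 1 and 2, with filled points for the 3 W6 libraries and an open point for mock replicate 3. Mock replicate 3 lies beyond all W6 libraries for pattern-triggered immunity, salicylic acid, phosphate starvation and the sugar starvation and darkness markers, and near 0 for the KMD genes and the type-A response regulators.

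The position of mock replicate 3 differed between the sets of called genes. Over the 183 genes that rose it lay a median of 0.154 (log2) above the mean of the other mock libraries, against 0.763 for the mean of W6, and over the 66 genes that fell it lay 0.07 below, against 0.546 below for W6 (medians of -0.07 and -0.546). Over the 117 genes called higher only without it, its median of 0.697 was about that of W6, 0.706, as follows from how those genes were selected. The same held for the 127 genes called lower only without it, with -0.318 for mock replicate 3 and -0.367 for W6. BT5 (AT4G37610), a relative of BT2 with 89.5% of its exon bases its own and so uncertain, had 17.2, 23.3 and 21.4 CPM in W6 plants, against 3.18, 2.76 and 19.4 CPM in mock plants. In mock replicate 3 the level was in the W6 range, and the other mock libraries were far under it. BT5 had log2 fold changes of 1.25 with mock replicate 3 and 2.80 without, and BT4, the other gene of this family called only without it, had 0.80 and 1.15. AT3G15450, a protein with YGL and LRDR motifs, had 217, 337 and 293 CPM in W6 plants, against 38.4, 56.99 and 157 CPM in mock plants. Its values were 1.74 and 2.57.

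The following genes were also called only without mock replicate 3. AT3G46280, a kinase-like protein, had 7.57, 9.39 and 4.77 CPM in W6 plants, against 0.670, 0.255 and 13.1 CPM in mock plants. AT1G26410, a berberine-bridge family oxidase, had 1.28, 1.12 and 0.822 CPM in W6 plants, against 0.112, 0.0511 and 5.57 CPM in mock plants. In both, mock replicate 3 was the highest of the 6 libraries and mock replicates 1 and 2 the lowest, and AT5G44585, an uncharacterised gene with uncertain reads, had the same order (0.344, 0.747 and 1.04 CPM in W6 plants, against 0.0558, 0.102 and 1.92 CPM in mock plants). Among genes called lower only without mock replicate 3, AT5G20790, of unknown function, had 2.11, 1.26 and 1.81 CPM in W6 plants, against 17.7, 9.86 and 2.56 CPM in mock plants, and AT2G15020 had 22.5, 22.2 and 19.99 CPM in W6 plants, against 63.1, 40.6 and 26.1 CPM in mock plants. Mock replicate 3 was the lowest mock library in each. AT5G17780, SAUR20 and AT1G70985 had log2 fold changes of -0.90, -0.86 and -0.82 without mock replicate 3, and -0.73, -0.60 and -0.56 with it.

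W6 was also set against the next lower and the next higher density, comparisons that share W6 libraries with the one against mock. Against W5, 53 genes were higher (0.273% of those tested) and 3 were lower (0.0155%) in W6. These 56 calls became 115 without mock replicate 3, 34 when W5 replicate 1 was left out, 30 when W5 replicate 2 was, 31 when W5 replicate 3 was, 35 when W6 replicate 2 was and 26 when W6 replicate 3 was. BT2 had a mean of 21.6 ± 0.643 CPM in W6 and 4.13 ± 0.686 CPM in W5 (SD, n = 3), a log2 fold change of 2.39 ± 0.22 (adjusted p = 0.00029). AT2G20670 had 253 ± 14.6 CPM in W6 and 113 ± 11.1 CPM in W5, with 1.16 ± 0.084 (adjusted p = 5.5e-07). AT5G03615, AT2G24240, a BTB domain protein, and AT5G22920, a zinc finger protein, were the other 3 of the 5 largest increases, with log2 fold changes of 1.31 ± 0.25 (adjusted p = 0.024), 0.99 ± 0.14 (adjusted p = 0.0013) and 0.94 ± 0.089 (adjusted p = 1.2e-05). The 3 lower genes were ARR6 at -0.67 ± 0.12 (adjusted p = 0.016), AT5G55620, uncharacterised, at -0.46 ± 0.079 (adjusted p = 0.0088), and AT1G33600, a leucine-rich repeat protein with uncertain reads, at -0.32 ± 0.058 (adjusted p = 0.015).

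In W7 against W6, 308 genes were higher (1.59%) and 200 were lower (1.03%), a split of direction that another scaling turned to 234 higher and 359 lower (upper-quartile factors). The number of calls rested on few libraries: the 508 became 66 without W6 replicate 1, 1153 without W6 replicate 2, 39 without W6 replicate 3, 55 without W7 replicate 2, 110 without W7 replicate 3 and 1183 without mock replicate 3. BT2 had 64.3 ± 4.75 CPM in W7 and 21.6 ± 0.643 CPM in W6, with a log2 fold change of 1.57 ± 0.17 (adjusted p = 0.0018). AT1G62420, another DUF506 gene, and AT5G64190 followed, at 1.45 ± 0.30 (adjusted p = 0.018) and 1.34 ± 0.23 (adjusted p = 0.0073). The largest decreases were in AT2G29370, a putative oxidoreductase, at -1.30 ± 0.34 (adjusted p = 0.048), AT1G73620, a thaumatin-like protein, at -1.23 ± 0.29 (adjusted p = 0.032), and ABCG14, a transporter that moves cytokinins from root to shoot, at -1.09 ± 0.17 (adjusted p = 0.0048).

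Along the density series the main genes took different courses. BT2 averaged 4.32 ± 1.52 CPM in mock, 4.13 ± 0.686 in W5, 21.6 ± 0.643 in W6, 64.3 ± 4.75 in W7 and 115 ± 22.8 in W8 (SD, n = 3 each), so that mock and W5 did not differ beyond their spread and each higher density was above the last. AT2G20670 averaged 38.1 ± 1.68, 113 ± 11.1, 253 ± 14.6, 346 ± 10.02 and 279 ± 34.3 CPM over the same groups, with the highest mean at W7. KMD1 averaged 55.8 ± 0.603, 127 ± 12.4, 234 ± 22.6, 291 ± 24.8 and 283 ± 13.7 CPM, with W7 and W8 within each other's spread. ARR6 averaged 28.6 ± 1.66, 18.8 ± 0.920, 11.8 ± 2.36, 16.4 ± 0.673 and 21.7 ± 3.42 CPM, lowest in W6, and the log2 fold change of W7 over W6 was 0.47 ± 0.12 (adjusted p = 0.05). FRK1 averaged 4.81 ± 2.59, 5.40 ± 1.18, 14.00 ± 1.26, 26.2 ± 7.85 and 109.9 ± 29.5 CPM and was highest in W8. AT2G44940 averaged 35.6 ± 5.79, 22.9 ± 1.69, 16.1 ± 1.48, 9.24 ± 1.48 and 6.35 ± 0.633 CPM, lower at each step.

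**Figure D5:**
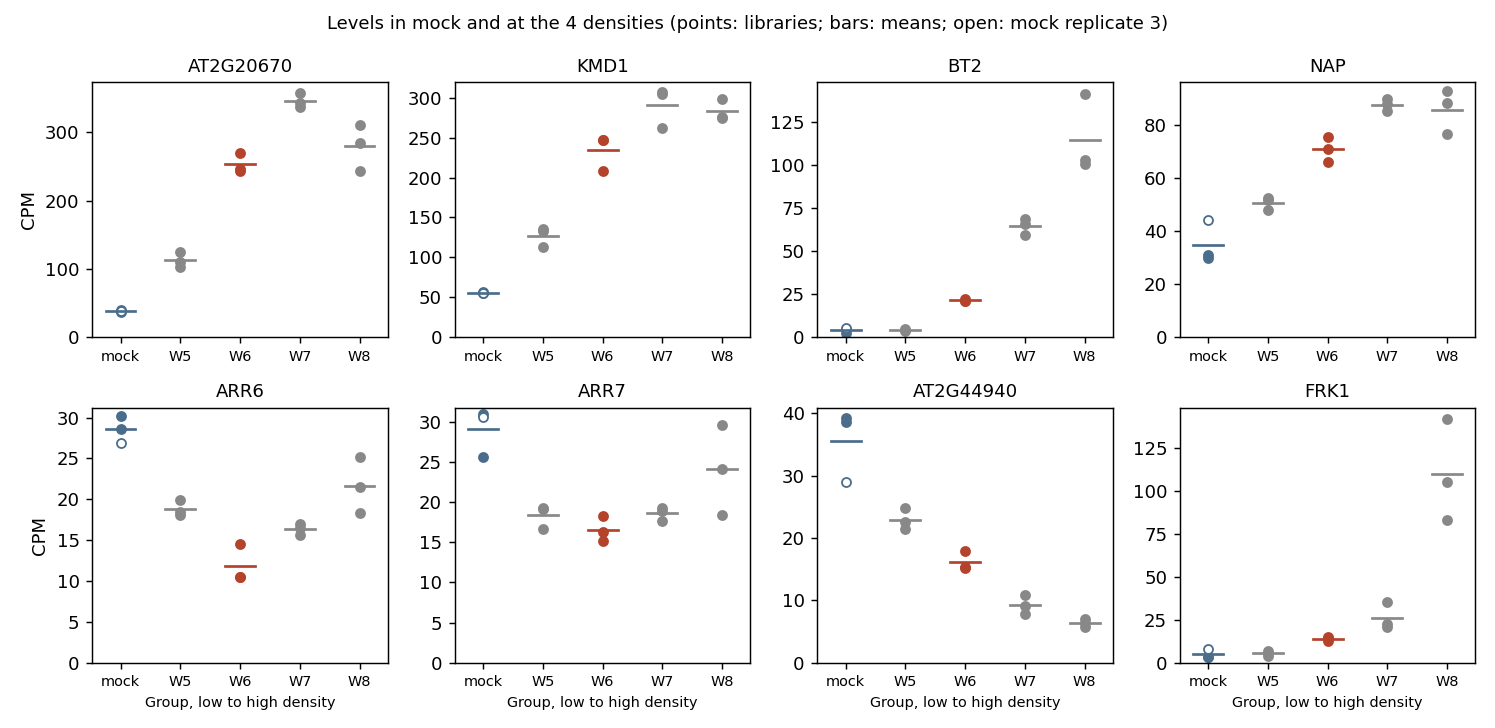
CPM on a linear axis from 0 in mock, W5, W6, W7 and W8 for 8 genes, 1 panel per gene, with a point per library, bars at the means of 3 libraries and an open point for mock replicate 3. BT2 and FRK1 have their highest means in W8, AT2G20670 in W7, and ARR6 its lowest mean in W6.

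The called genes were also read in comparisons that share no library with W6 against mock. Their spread between replicates came from the same fit of all 15 libraries, so these comparisons are not fully separate. In W7 against W5, 4.86% of all genes tested were higher and 2.69% lower. Of the 183 genes that rose in W6 against mock, 155 (84.7%) were higher there, which is 16.4% of the 943 genes higher in that comparison, and none was lower. Of the 66 genes that fell, 36 (54.5%) were lower there, 6.91% of its 521 lower genes, and 1 was higher. In W8 against W5, where 18.1% of all genes were higher and 15.2% lower, 155 of the 183 were again higher (4.41% of its 3518 higher genes) and 3 were lower, while 39 of the 66 (59.1%) were lower (1.32% of its 2957 lower genes) and 7 were higher. Over the genes that rose in W6, the median log2 ratio to mock replicates 1 and 2 was 0.329 in W5, 0.763 in W6, 0.997 in W7 and 1.106 in W8. Over the genes that fell it was -0.263 in W5, -0.546 in W6, -0.659 in W7 and -0.609 in W8. Unlike the counts above, these medians use W6 and mock libraries that selected the genes. The W6 medians and the direction therefore follow in part from that selection.

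Across all 40 gene lists, 531 of 573 members were tested, 21 rose and 7 fell, shares to be read against 0.943% and 0.34% of all genes. Without mock replicate 3, 36 rose and 20 fell. No member was called in 25 lists, and in 18 lists without mock replicate 3. Besides those described, lists without a call in either fit were camalexin and indole glucosinolates, aliphatic glucosinolates, cysteine-rich and wall-associated receptor kinases, iron deficiency and ferritins, flavonoids and anthocyanins, heat shock, and endoplasmic reticulum protein folding. All 17 tested aliphatic glucosinolate genes had a log2 fold change below 0, with a median of -0.13. Genes of 1 list were measured in the same libraries, so a sign shared by a whole list is not a set of independent results. MAM3 (AT5G23020), an enzyme of chain elongation in this pathway, had 30.5, 32.9 and 35.2 CPM in W6 plants, against 52.2, 36.8 and 41.5 CPM in mock plants, with an adjusted p of 0.14.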

How the data were processed

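RNA of aboveground tissue was sequenced as poly-A libraries with the NEBNext Ultra kit on a NovaSeq instrument, per the labels' protocols. The authors deposited 1 table of raw read counts, with genes in rows and libraries in columns. The submitters' processing notes name featureCounts 1.22.2, cutadapt 1.9.1 and TAIR10 as the build. Aligner and strand setting: not given in the sources used here, so genes with under 95% of their exon bases free of other genes are called uncertain. Of 32833 identifiers 32548 matched RefSeq.

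Genes were kept with edgeR 4.0.16 filterByExpr (minimum count 10, minimum total 15) in R 4.3.3, and 13429 were removed. After scaling by the trimmed mean of M values (TMM), edgeR's quasi-likelihood test (robust) was run on all 15 libraries with group as the factor, with Benjamini-Hochberg adjustment over all genes tested and calls at an adjusted p under 0.05. Log2 fold changes are given ± SE and levels as CPM scaled with the TMM factors, which are not set against each other between genes. On simulated counts of this comparison over 19404 genes, 97% of genes changed 4-fold, 65.7% of genes changed 2-fold and 68.3% of genes changed 1.5-fold were called. Each share rests on 63 to 67 genes. Apart from the genes changed in W6, all libraries were drawn from 1 mean per gene. The simulation thus held no library standing apart, as mock replicate 3 does, and these shares may not hold for the real libraries. Alternatives were DESeq2 1.42.0, limma 3.58.1 voom, other scalings and filters, a fit of only the 2 groups compared, a replicate block and leaving out each library.

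Named genes were up to 15 per direction with the largest change among called genes whose average log2 CPM reached 1 and with all W6 libraries on 1 side of all mock libraries; up to 5 per direction called only without mock replicate 3; up to 5 per direction for W6 against W5 and 3 for W7 against W6; up to 4 per gene list by p; and a fixed set of markers. Any other gene in the text was picked with its values in view, as were the comparisons W7 and W8 against W5. The comparison, lists and members were chosen with earlier results of these data known. Replicate numbers come from the sample titles, which do not say that they mark pairs, and the main fit did not pair the libraries. Deviations of same-numbered W6 and mock libraries correlated at 0.102, 0.0751 and 0.181, against -0.139 to 0.0507 between different numbers. With 3 libraries per group this check cannot settle whether the numbers mark pairs.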

Additional observations from a re-analysis of the deposited data

How the results depend on the processing

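The number of genes called in W6 against mock, 249 in the main fit, ran from 147 to 469 when 1 library was left out, the highest without mock replicate 3. It was 145 (118 higher, 27 lower) when only the 2 groups compared were fitted, 423 in that fit without mock replicate 3, 146 at an adjusted p under 0.01, and 712 without mock replicate 3 and W6 replicate 1, an alternative chosen after seeing the data. DESeq2 called 333, limma voom 213, and the remaining scalings, filters and the fit with a replicate block (230 calls) between 230 and 248. Each W6 library correlated best with the mock library of its own number, and the check could not settle whether the numbers pair the samples. With the block 63 genes were called in W6 against W5, 450 in W7 against W6 and 27 list members. W6 against W5, with 56 calls, gave 114 with DESeq2, 122 with only the 2 groups compared, and 26 to 115 with 1 library left out. W7 against W6, with 508 calls, gave 1052 with DESeq2 and 39 to 1183 with 1 library left out, and upper-quartile factors moved the share of higher calls from 60.6% to 39.5%. List members called, 28 in all, were 16 with only the 2 groups compared, 58 in that fit without mock replicate 3, 69 without mock replicate 3 and W6 replicate 1, and 20 to 56 with 1 library left out. Some genes not called in the main fit changed sign, and their log2 fold changes are given as a range over the fits with 1 library left out and the fit without both mock replicate 3 and W6 replicate 1, with the fits of opposite sign. ASN1 ran from -0.62 to 0.83, with 0.58 without mock replicate 3 and 0.59 in the fit of only the 2 groups without it. BCAT2 ran from -0.80 to 0.99 (0.83 without mock replicate 3, in both fits that leave out that library alone). NAC055 ran from -0.15 to 2.43 (-0.13 without mock replicate 1), ARR8 from -0.31 to 0.052 (0.008 without W6 replicate 3), TOC1 from -0.033 to 0.41, and MLO12 from -0.99 to 1.78 (0.38 with limma voom, 1.67 without mock replicate 3). AT1G26410 ran from -1.45 to 3.66, with 3.52 when W6 replicate 1 was left out beside mock replicate 3 and 1.34 with limma voom. AT5G44585 ran from -0.55 to 3.38 (0.019 with DESeq2, 1.17 with limma voom, 0.19 with the replicate block, 0.29 without W6 replicate 1, 3.05 without mock replicate 3). Under the other scalings the median log2 fold change of all genes lay between -0.034 and 0.011 over the 3 comparisons. The cause of these differences was not tested. The filter on low counts removed 13429 genes, and of these 7521 had no count in any of the 15 libraries.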

Other observations

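Gene families were counted from the words of their annotation after the values had been seen, so the counts below describe these libraries and were not tested. Without mock replicate 3, 1.5% of all genes rose and 0.899% fell. In that fit 20 of 379 tested RING finger and U-box genes rose and 2 fell, 6 of 110 DnaJ genes rose and 3 fell, and 5 of 57 CCCH genes rose and 1 fell. Of 9 PLATZ genes 4 rose, of 61 kelch-repeat genes 4 and of 10 LOB domain genes 3. With all libraries, 0.943% of all genes rose and 0.34% fell, shares to be set beside each family count below. Of 379 tested RING finger and U-box genes 15 rose and 2 fell. RMA1 (AT4G03510), a membrane-anchored ubiquitin ligase with 91.4% of its exon bases its own and so uncertain, had 45.04, 51.4 and 47.5 CPM in W6 plants, against 18.5, 17.57 and 19.2 CPM in mock plants, with a log2 fold change of 1.38 ± 0.074 (adjusted p = 9.5e-10). RMA2 (AT4G28270) gave 0.86 ± 0.10 (adjusted p = 5.2e-05). Among 60 tested kelch-repeat genes 4 rose and none fell, and beside KMD1 and KMD2 they held AT1G23390, which had 387, 393 and 409 CPM in W6 plants, against 165, 173 and 168 CPM in mock plants. All its W6 values were more than 2-fold above all its mock values. Of 109 tested DnaJ chaperone genes 5 rose, among them J11 (AT4G36040), a small chloroplast protein, which had 447, 455 and 477 CPM in W6 plants, against 264, 257 and 277 CPM in mock plants, and rose by 0.79 ± 0.073 (log2, adjusted p = 1.4e-06). TEM1, RAV2 and RAV1, which carry an AP2 and a B3 domain, were picked with their values in view, with no count of the other genes of their kind. TEM1 (AT1G25560), a repressor of flowering, had 157, 155 and 166 CPM in W6 plants, against 57.5, 63.8 and 72.4 CPM in mock plants, and its log2 fold change was 1.304 ± 0.082, that of RAV2 (AT1G68840) 1.01 ± 0.092 and that of RAV1 (AT1G13260) 0.85 ± 0.11. All 3 were called in each of the 17 alternative settings.

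Of 8 tested PLATZ zinc finger genes 3 rose, of 10 tested LOB domain genes 3 rose, LBD37, LBD38 and LBD41, and of 56 tested CCCH zinc finger genes 4 rose and 1 fell. ATCTH (AT2G25900), a tandem zinc finger protein, had 212, 219 and 212 CPM in W6 plants, against 87.7, 102 and 103 CPM in mock plants, and OZF2 (AT4G29190), a relative, had 176, 171 and 185 CPM in W6 plants, against 102, 95.6 and 112 CPM in mock plants. In both genes the groups were far apart, at log2 fold changes of 1.13 ± 0.071 and 0.78 ± 0.074. Of 49 tested EF-hand and calmodulin-like genes none rose and 4 fell, CP1 among them, against 1 higher and 3 lower without mock replicate 3, with CML42 (AT4G20780) at -0.61 ± 0.11. The sulfur-related genes LSU3 (AT3G49570), which rises under low sulfur, and SULTR1;2 (AT1G78000), a sulfate transporter, rose with log2 fold changes of 1.09 ± 0.21 (adjusted p = 0.0094) and 0.79 ± 0.14 (adjusted p = 0.0032). LSU3 was called in 14 of the 17 alternative settings (adjusted p 0.00052 to 0.086) and not without W6 replicate 1 (log2 fold change 0.98), without W6 replicate 3 (0.99) or without mock replicate 2 (0.95).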
